A study of Mus musculus with 289 samples.

Results

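The transcripts described here are 10 immediate early and AP-1 genes, Fos, Fosb, Jun, Junb, Jund, Egr1, Atf3, Ier2, Ier3 and Zfp36, measured in single tdTomato-positive keratinocytes sorted from mouse tail skin. They were taken by symbol, and all 10 were found among the 15019 genes of the count table. The mice, of mixed CBA and C57BL/6 strain, carried both the Lrig1-EGFP-ires-CreERT2 and the Rosa26-fl/STOP/fl-tdTomato alleles. The Lrig1 promoter drives the tamoxifen-dependent Cre, so 1 topical dose of hydroxytamoxifen on the tail marks Lrig1-expressing stem cells of the hair follicle junctional zone and every cell they later give rise to. All animals of both groups carried these alleles and received this labelling, and none was wounded (time label t0). The skin then received its vehicle or PRT4165, a drug that blocks Ring1a and Ring1b, which place ubiquitin on histone H2A as part of the Polycomb complex PRC1. Per the study, this treatment was repeated on alternate days, and cells were taken hours after the last dose. The vehicle label bears the letters AC, and the study dissolved its drugs in acetone. The 289 cells lay on 4 plates, 2 per treatment, and 274 cells passed the study's filters: 70 and 55 on vehicle replicates 1 and 2, and 72 and 77 on PRT4165 replicates 1 and 2. The plate is the replicate throughout. No plate mixed treatments. Both vehicle plates carry the code PR9 and both PRT4165 plates the code PR12, which the labels do not explain, so treatment and whatever these codes mark cannot be told apart. The study describes independent experiments, each with several biological replicates, but the labels do not tie animals or experiments to plates. The p-values below therefore measure the spread between these plates, some of which may be technical.

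Immediate early genes are transcribed within minutes of a stimulus, without new protein synthesis, and their mRNAs are short-lived. Fos and Jun family proteins pair through leucine zippers to form AP-1, a transcription factor that in epidermis is known for roles in stress, wound and differentiation programmes. The same genes are also known to be induced while a tissue is taken apart into single cells. Here, per the study's methods, the epidermis was peeled after overnight cold trypsin, chopped, filtered and sorted, which all 4 plates shared. No undissociated skin is among these libraries, so transcription in the skin and transcription during dissociation cannot be told apart, and the part of dissociation in the levels below was not tested.

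Median depth per cell ranged from 141985 estimated counts on vehicle replicate 1 to 538754 on PRT4165 replicate 2, and single cells from 9796 to 3029822. Keratinocyte identity was clear, with Krt14 detected in 93.1% of the kept cells and Krt5 in 73.7%. Of markers of other cell types, Ptprc (leukocytes) and Col1a1 (fibroblasts) were each detected in 4.74% of cells and stayed at or below 1.11 CPM in the sum of any plate. Dcn, another fibroblast marker, was detected in 10.6% of cells, at 6.60 and 22.0 CPM on the vehicle plates and 78.8 and 5.602 CPM on the PRT4165 plates. Its highest plate, PRT4165 replicate 1, was also the highest for Fos, Jun, Junb, Egr1, Atf3, Ier2 and Zfp36, but not for Fosb, Jund and Ier3. The 2 melanocyte markers in the table summed to 0.697 to 5.04 CPM and the 3 fibroblast markers to 5.72 to 79.3 CPM. Of the melanocyte markers, Dct was detected in 14.6% of cells, at or below 3.12 CPM on every plate, and Pmel in 4.74%. Pecam1, the only listed endothelial marker in the table, was counted in 100% of the cells at 210 to 609 CPM, so it did not mark a cell type here. Of 15 markers looked for in these 4 classes, 7 were found in the table and 0 of those were at 0 on all plates. The part of such cells or of free RNA in the results below was not tested.

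In the GENCODE annotation of GRCm38, the Fos gene lies at chr12:85473890-85477273 on the plus strand, Fosb at chr7:19302696-19310051 on the minus strand and Jun at chr4:95049034-95052222 on the minus strand. Junb (chr8:84974484-84978718, minus strand), Jund (chr8:70698949-70700616, plus strand) and Ier2 (chr8:84661331-84662852, minus strand) share a chromosome. Atf3 lies at chr1:191170296-191218039 on the minus strand, Ier3 at chr17:35821684-35822923 on the plus strand and Zfp36 at chr7:28376784-28380253 on the minus strand. All 10 are protein-coding genes.

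The upstream sequences of 5 of the genes are shown because these transcripts varied together from cell to cell. RefSeq promoters were matched for 8 of the 10 genes, without Egr1 and Ier2. Fos, Fosb and Zfp36 are shown as the genes most closely coordinated with each other across cells when all counts were used. Jun is shown as the AP-1 partner of Fos, and Atf3 as the gene whose level differed most between the treatments. Each run gives the 250 bases before the RefSeq transcription start, 5′ to 3′ on the gene's own strand. Capitals mark matches, on either strand, to the motifs named in the following paragraph.
Fos, GRCm38.p6 chr12:85473640-85473889, plus strand: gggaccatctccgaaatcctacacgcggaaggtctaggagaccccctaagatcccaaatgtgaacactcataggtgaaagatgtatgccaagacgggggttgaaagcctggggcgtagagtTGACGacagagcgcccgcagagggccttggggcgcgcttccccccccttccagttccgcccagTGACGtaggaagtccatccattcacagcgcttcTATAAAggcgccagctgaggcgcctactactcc
Fosb, GRCm38.p6 chr7:19310046-19310295, minus strand: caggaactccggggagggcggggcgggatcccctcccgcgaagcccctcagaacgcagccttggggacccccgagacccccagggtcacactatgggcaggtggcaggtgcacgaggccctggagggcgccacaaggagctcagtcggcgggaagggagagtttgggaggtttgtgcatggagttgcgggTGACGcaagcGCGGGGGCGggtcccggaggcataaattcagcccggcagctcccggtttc
Zfp36, GRCm38.p6 chr7:28379229-28379478, minus strand: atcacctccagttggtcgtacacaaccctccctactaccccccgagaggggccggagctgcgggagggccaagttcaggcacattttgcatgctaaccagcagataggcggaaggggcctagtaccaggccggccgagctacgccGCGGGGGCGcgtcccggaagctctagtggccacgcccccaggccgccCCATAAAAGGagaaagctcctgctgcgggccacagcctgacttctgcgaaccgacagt
Jun, GRCm38.p6 chr4:95052223-95052472, minus strand: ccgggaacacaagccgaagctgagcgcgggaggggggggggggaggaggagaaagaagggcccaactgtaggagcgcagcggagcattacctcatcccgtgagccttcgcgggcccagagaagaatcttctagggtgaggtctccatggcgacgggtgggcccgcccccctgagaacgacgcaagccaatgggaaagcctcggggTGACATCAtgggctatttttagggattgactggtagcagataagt
Atf3, GRCm38.p6 chr1:191183334-191183583, minus strand: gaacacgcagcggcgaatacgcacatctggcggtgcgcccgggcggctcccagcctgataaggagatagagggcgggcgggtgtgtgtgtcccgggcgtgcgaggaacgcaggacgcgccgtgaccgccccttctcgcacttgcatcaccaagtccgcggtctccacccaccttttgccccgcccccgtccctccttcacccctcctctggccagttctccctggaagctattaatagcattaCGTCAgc

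Of 7 motifs searched, TGACG, the half-site of the cAMP response element and contained in its full form TGACGTCA, was matched in 4 of the 8 promoters (Fos, Fosb, Junb and Atf3), against 17.8% of all 32851 RefSeq promoters of the same length. In Fos it stood at 2 positions, 1 of them 66 bases before the start, and a TATAAA stood 33 bases before the start. TGACATCA, the form of the AP-1 site known from Jun, was matched in Jun alone (2.93% of all promoters). The CArG box, the core of the serum response element, was matched in Zfp36 alone (1.47%), as CCATAAAAGG. GCGNGGGCG, the site bound by Egr proteins, was matched in Fosb and Zfp36 (4.70%), and TATAAA in Fos alone (12.4%). The classical AP-1 site TGANTCA (6.75%) and the full TGACGTCA (1.55%) were matched in 0 of the 8. A match is a description of these letters in this window and not of binding. Bases further upstream were not searched, and neither were Egr1 and Ier2. The Jund window (chr8:70697489-70697738) lay apart from the start of that gene in GENCODE (chr8:70698949). The printed Atf3 and Zfp36 windows lay inside those genes as annotated in GENCODE. On the minus strand these genes start at chr1:191218039 and chr7:28380253, so the RefSeq starts used here differ from them.

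The levels of the 10 transcripts on the 4 plates came next, ordered by role. They are given as CPM, the counts summed over the kept cells of a plate and scaled to a total of 1000000, and values follow the order vehicle replicates 1 and 2, then PRT4165 replicates 1 and 2. Summed, the members made up 0.0843% to 0.150% of a plate, and Fos alone gave between 55.8% and 60.5% of that.

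Fos, the partner that brings AP-1 its activating strength, was at 547, 487, 873 and 510.5 CPM. PRT4165 replicate 1 stood above the other 3 plates, which lay close together, and the groups overlapped. Fosb, its close relative, was at 13.5, 32.4, 15.9 and 16.9 CPM, with vehicle replicate 2 highest. 1 cell gave 43.6% of the Fosb counts of that plate. Jun, which can bind DNA as a pair with itself or with Fos, was at 35.8, 47.4, 66.1 and 46.1 CPM, and the groups overlapped.

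Junb, often a weaker activator than Jun, was at 57.1, 16.2, 58.7 and 21.2 CPM. Its high and low plates followed the replicate number and not the treatment, with both plates tagged replicate 1 above both plates tagged replicate 2. Fos and Egr1 split by replicate number in the same direction, and Fosb and Jund in the reverse direction. The share of all genes split this way was not counted. Over 12791 genes, deviations of same-numbered plates from their group means correlated at 0.0426. Jund, the most constantly expressed Jun protein in many tissues, was lowest in CPM, at 7.18, 10.8, 5.62 and 8.80, and the groups overlapped. Egr1, a zinc finger factor of the same early wave, was at 165.4, 126, 268 and 111.1 CPM, so the PRT4165 plates were the highest and the lowest of the 4.

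Atf3, a stress-induced partner of Jun proteins, was at 17.3 and 16.8 CPM with vehicle and at 65.2 and 25.8 CPM with PRT4165. Both PRT4165 plates lay above both vehicle plates, and they differed from each other more than the vehicle plates did. Ier2, an early gene of the same wave, was at 56.5, 49, 73.3 and 61.6 CPM, again with both PRT4165 plates higher. Ier3, an early gene known for roles in cell survival, was at 51.6, 64.6, 48.96 and 27.0 CPM, with both PRT4165 plates lower. Zfp36 encodes tristetraprolin, which binds AU-rich mRNAs, those of early genes and cytokines included, and speeds their decay. It was at 19.9, 22.2, 28.2 and 14.4 CPM, with overlapping groups.

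**Figure D1:**
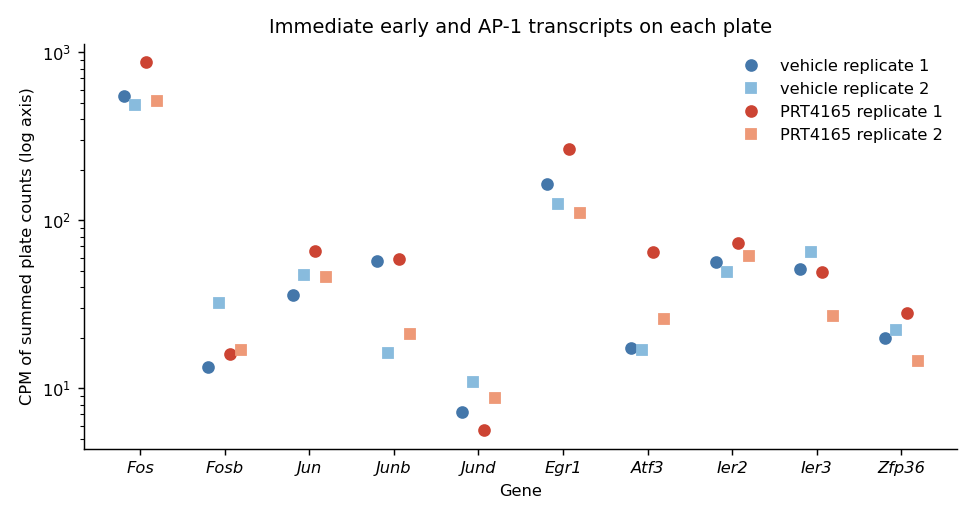
CPM of the summed counts of each plate (log axis) for the 10 genes, with 1 point per plate, vehicle in blue and PRT4165 in red, replicate 1 as circles and replicate 2 as squares. Fos is highest on every plate (487 to 873 CPM), and Atf3 and Ier2 have both red points above both blue points. The points of Junb, Fos, Egr1, Fosb and Jund separate by replicate number.

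Per kilobase of exon, Fos was the most abundant, at 287 CPM per kb ± 85.6 (SD, n = 4 plates), and its lowest plate (231) stood above the highest plate of any other member. Ier3 (42.5 ± 13.8), Ier2 (39.5 ± 6.71) and Egr1 (37.3 ± 15.8) followed and did not differ from each other beyond their spread. Junb (21.2 ± 12.6), Jun (15.3 ± 3.95) and Atf3 (14.5 ± 10.7) came next with overlapping ranges. Zfp36 (6.10 ± 1.64), Fosb (5.20 ± 2.28) and Jund (4.86 ± 1.34) were lowest and overlapped (all SD, n = 4 plates). Of these, Jun, Jund and Zfp36 overlap an annotated antisense gene, Junb the gene Prdx2 on the opposite strand, and Atf3 a small non-coding RNA. Smart-seq2 reads carry no strand, so reads from such partners cannot be told apart. Values were whole to within 1e-06 except in 18 of the 124 cells with Zfp36 and in 2 cells with Fosb.

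Whether PRT4165 altered these transcripts was tested on the plate sums with edgeR's quasi-likelihood test, fitted over all 12791 genes that passed the filter on low counts, which included all 10 members. It called 0 of the 10 at an adjusted p under 0.05, where 0% of all genes tested were called. At an unadjusted p under 0.05 there were 0 of the 10, against 4.93% of all genes tested (2.79% in the direction of higher with PRT4165). With a mitochondrial limit of 25% there was 1, Atf3, at a log2 fold change of 2.25 (unadjusted p 0.0362, adjusted p 0.999 by edgeR). Atf3 came closest, with a log2 fold change of 1.42 (SE 0.72, 95% interval -0.24 to 3.07, unadjusted p 0.0836, adjusted p 0.997 by edgeR). For Fos the log2 fold change was 0.42 (SE 0.46, interval -0.62 to 1.47), for Egr1 0.37 (interval -0.95 to 1.68), for Jun 0.47 (interval -0.87 to 1.81) and for Ier2 0.37 (interval -0.92 to 1.66). Ier3 was at -0.59 (interval -1.98 to 0.81), Fosb at -0.40, Jund at -0.25, Junb at 0.05 and Zfp36 at 0.04. Each of the 10 intervals held 0 and reached beyond 2-fold in at least 1 direction, so a missing call does not show that a transcript was the same in both groups.

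Of the 10 log2 fold changes 7 were above 0, as were those of 49.4% of all genes tested, and the median was 0.21 against -0.02 over all genes. CPM on both PRT4165 plates lay above both vehicle plates for 2 members (Atf3 and Ier2), where 15.4% of all genes did so, and below for 1 (Ier3), where 16.3% did so. In either direction this was 3 of the 10 against 31.7%, a share near the background. DESeq2 called 1.45% of 14988 genes, 0 of them a member.

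The share of cells with a count gave a second view of the same plates. Over all 274 cells Egr1 was the most widely detected member (66.1%), with 62.9%, 61.8%, 70.8% and 67.5% by plate. Fos was detected in 57.1% (Wilson 95% interval 45.5 to 68.1), 49.1% (36.4 to 61.9), 65.3% (53.8 to 75.2) and 77.9% (67.5 to 85.7). Both PRT4165 plates were higher than both vehicle plates, and PRT4165 replicate 2, with the larger share, had the lower Fos CPM of the 2. Among its Fos-positive cells the median was 275 CPM, set against 1017 CPM on PRT4165 replicate 1 and 571 and 797 CPM on the vehicle plates.

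With all counts, Atf3 had the widest gap. It was detected in 11 of 70 and 5 of 55 vehicle cells, or 15.7% (9.01 to 26.0) and 9.09% (3.95 to 19.6), and in 25 of 72 and 33 of 77 PRT4165 cells, or 34.7% (24.8 to 46.2) and 42.9% (32.4 to 53.99). The mean share was 12.4% ± 4.68 with vehicle and 38.8% ± 5.75 with PRT4165 (SD, n = 2 plates each). This difference of 26.4 percentage points, before any correction for depth, was larger than the spread between plates and larger than that of 99.9% of all genes tested. The cells that had a count carried less of it on the PRT4165 plates, with medians of 83.1 and 56.4 CPM among positive cells against 217.5 and 142.6 CPM. No test of 2 against 2 plates can give an exact permutation p below 0.333.

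Shares depend on depth, and vehicle replicate 1 was the shallowest plate. Both PRT4165 plates exceeded both vehicle plates in the share of cells for 7 of the 10 members, where 31.9% of all genes tested did so, and fell short of both for 0, where 7.69% did so. With cells randomly reduced to 50000 non-mitochondrial counts apiece, which left 246 cells, this held for 3 members (Fos, Atf3 and Ier2), against 24.3% of all genes, and the reverse for 0, against 12.6%. Thinned, Atf3 was at 16.9% and 7.41% with vehicle and at 31.1% and 31.9% with PRT4165, and Fos was at 57.6% and 40.7% against 70.5% and 70.8%. The difference in mean share was then wider for Fos, at 21.5 percentage points, larger than that of 99.7% of genes. For Atf3 it was 19.4 points, larger than that of 99.4%. These were the members with the largest differences, and were picked for that. For the others this percentage ran from 10.8% (Fosb) to 93.1% (Egr1), with Jund at 12.6%, Ier3 at 39.5% and Zfp36 at 60.5%. For Ier3 the share of cells (55.7% and 34.5% against 58.3% and 59.7%) and the CPM went in opposite directions, and after thinning the groups overlapped, so no order is read for this gene.

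**Figure D2:**
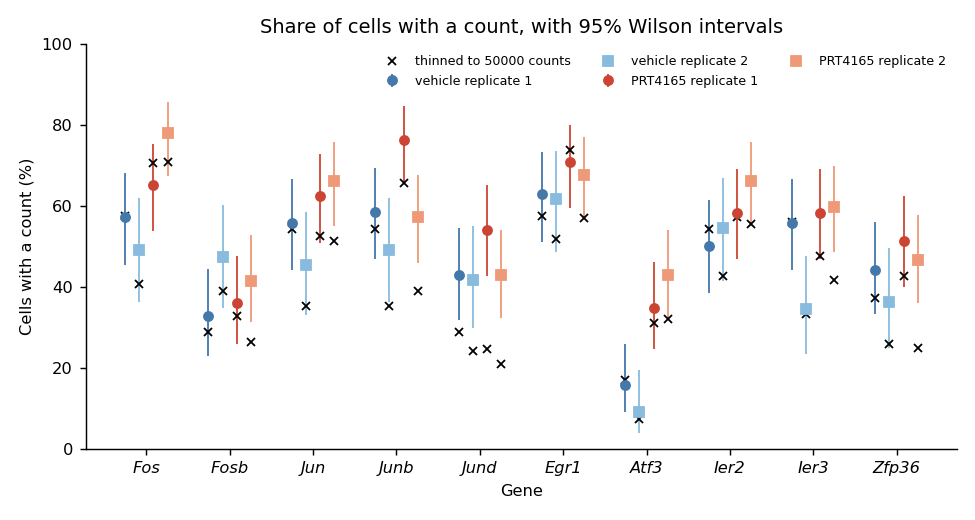
Percentage of kept cells with a count of each gene, 1 point per plate with its 95% Wilson interval (counting error only), and black crosses for the same plate after thinning to 50000 counts. Atf3 is at 9.09% and 15.7% on the vehicle plates and at 34.7% and 42.9% on the PRT4165 plates.

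Counts of each gene came from a minority of cells. The 10% of cells richest in a member gave between 54.2% and 100% of its counts on a plate, with medians over the 10 members of 72.2%, 73.2%, 67% and 62.8% in plate order. Over all 5112 genes detected in at least 25% of cells the medians were 78.8%, 76.1%, 77.0% and 73.4%, higher on every plate. On vehicle replicate 2 the top cell for each gene gave 63.1% of the Atf3 counts, 49.8% of the Zfp36 counts and 41.8% of the Jun counts. For Fos the median cell was at 90.5, 0, 310.3 and 138.3 CPM, the lowest cell at 0 on every plate, and the highest cell at 4869, 4900, 8360 and 5173 CPM.

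The number of members with a count in the same cell was then counted. The median cell had 4 of the 10 on each vehicle plate and 6 on each PRT4165 plate (exact permutation test, two-sided, p = 0.333, the smallest value possible). Thinned to 50000 counts, the medians were 4 and 3 with vehicle and 5 and 4 with PRT4165, a difference of 1 with overlapping plates (exact permutation p = 0.667). Cells with no member at all made up 7.14% and 12.7% of the vehicle plates and 2.78% and 2.60% of the PRT4165 plates. In thinned cells these shares were 8.47% and 20.4% against 3.28% and 8.33%. With a mitochondrial limit of 25% the replicate 1 plates of both treatments were at 4.17%. Cells with 8 or more numbered 21 of 70, 13 of 55, 25 of 72 and 19 of 77 in plate order, so at this end the groups overlapped. Both kinds of cell were present on every plate.

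**Figure D3:**
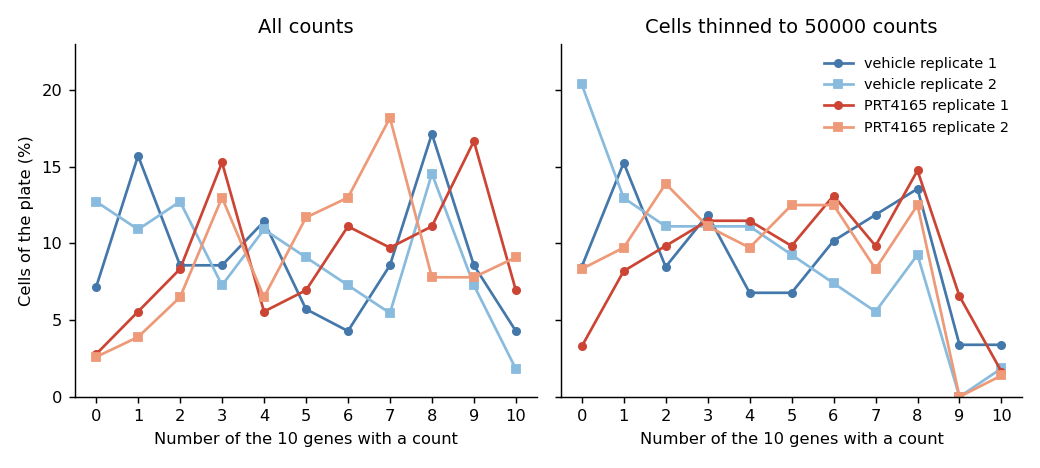
Percentage of the cells of each plate (y axis) against the number of the 10 genes with a count in the cell (x axis), with all counts on the left and after thinning to 50000 counts on the right. Every plate spreads over the whole range from 0 to 10, with a median of 4 on the vehicle plates and 6 on the PRT4165 plates before thinning.

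The members varied together from cell to cell. Within each plate the Spearman correlation of log2(CPM + 1) was computed for each of the 45 pairs of members and averaged over the 4 plates. All 45 averages were above 0, with a median of 0.364 and a range from 0.103 to 0.582. Over the 13063716 pairs of the 5112 genes detected in at least 25% of cells the median was 0.0552 and the 95th percentile 0.187, and 38 of the 45 pairs lay above that percentile. These values describe cells that share a plate and a library preparation and differ in depth, so no p is given.

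Coordination was found under both treatments. The median over the 45 pairs was 0.426 over 70 cells and 0.341 over 55 cells with vehicle, and 0.330 over 72 cells and 0.285 over 77 cells with PRT4165. Both PRT4165 plates lay below both vehicle plates, the closest of them by less than the vehicle plates differed from each other. With a mitochondrial limit of 25% the groups overlapped, at 0.361 and 0.291 with vehicle and 0.334 and 0.221 with PRT4165. Over all gene pairs the plate medians were 0.0537, 0.0636, 0.0555 and 0.0382.

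Fos stood at the centre, with a median correlation of 0.463 with the other 9. Its correlation with Fosb was 0.582, and ranged from 0.530 to 0.643 over the plates. With Zfp36 it was 0.558 (0.445 to 0.658), with Egr1 0.557 (0.466 to 0.646), with Junb 0.497 (0.388 to 0.606) and with Jun 0.457 (0.275 to 0.628). Zfp36, the decay factor, was second to Fos, with a median of 0.436. Fos, Fosb and Zfp36, whose promoters are printed above, thus gave 3 of the 4 highest of all pairs when all counts were used. In cells thinned to 50000 counts this order changed, and Fos with Egr1 was highest (0.547). Fos with Fosb was then at 0.506 and Fos with Zfp36 at 0.439. Fosb with Zfp36 fell to 0.309, where the median over all member pairs was 0.317.

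Atf3 and Ier3 were looser, with medians of 0.307 and 0.295, although Atf3 with Fos reached 0.410. Jund stood apart. Its correlation with each other member was between 0.103 and 0.218, with a median of 0.147, below the 95th percentile of all gene pairs. Jund was also the lowest of the 10 in CPM, and the part of its low counts in this was not tested.

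Among the 10% of cells with the most Fos on each plate (29 cells in all), 13 were also in the top 10% of their plate for Fosb, 13 for Ier2, 12 for Jun, 11 for Atf3 and 11 for Junb. For Egr1 there were 9, for Zfp36 8, for Jund 7 and for Ier3 6. The same count was not made for genes outside the members, so these numbers stand without a background.

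**Figure D4:**
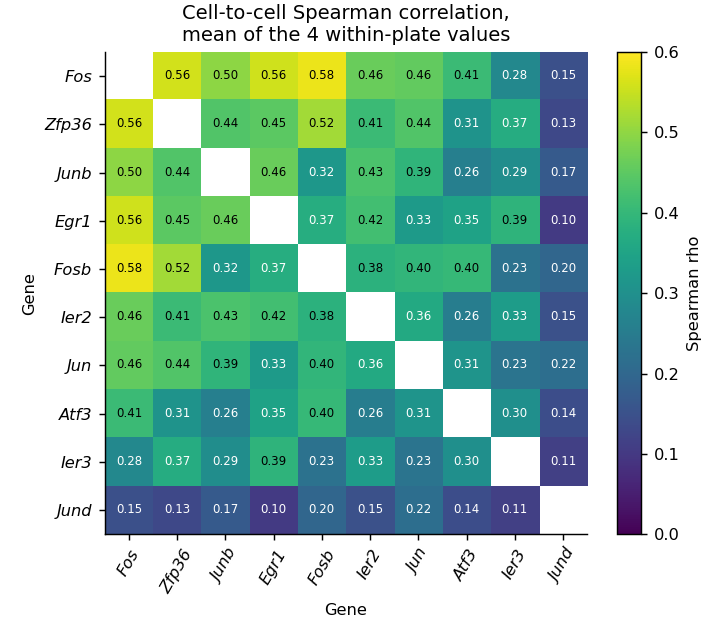
Spearman correlation across cells for each pair of genes, as the mean of the 4 within-plate values, with genes ordered by their median correlation with the other 9. The block from Fos to Jun is brightest, up to 0.58 for Fos and Fosb, and the row of Jund stays at or below 0.22.

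**Figure D5:**
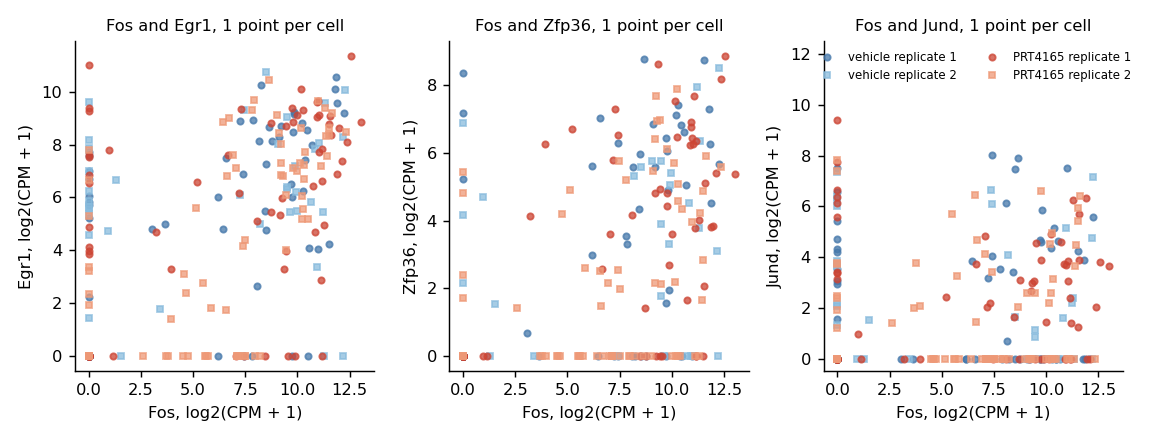
Level of Egr1, Zfp36 and Jund (y axes) against Fos (x axes), each as log2(CPM + 1), with 1 point per kept cell coloured by plate. Cells high in Fos tend to be high in Egr1 and Zfp36 on all 4 plates, while Jund shows little such tendency, and many cells lie at 0 on an axis.

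A score, the mean of log2(CPM + 1) over the 10 members, was set against other properties of the cells. The lowest score was 0 on every plate, the median 2.46, 1.97, 3.44 and 3.04, and the highest 7.43, 8.67, 9.05 and 7.84. Its mean within-plate Spearman correlation was 0.456 with the number of genes detected (0.292 to 0.546 over the plates) and 0.171 with the non-mitochondrial count. It was -0.0862 with the mitochondrial share, 0.00282 with the row and -0.0171 with the column of the well. When the ranks were adjusted for the number of genes detected, the median over the 45 pairs was 0.285, all 45 stayed above 0, and the median over all gene pairs was 0.00563.

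Other genes whose pattern over the 274 cells was among the 10 most like the score were Dusp1 (mean rho over 4 plates 0.522), Btg2 (0.485), Ccnl1 (0.417), Sertad1 (0.409), Clk1 (0.380), Klf6 (0.374), Id1 (0.347), Nploc4 (0.342) and Tmem72 (0.337). The median over the 5102 genes ranked was 0.0995. Dusp1 encodes a phosphatase of MAP kinases, Btg2 an antiproliferative protein, Klf6 a zinc finger factor, Ccnl1 a cyclin and Clk1 a kinase, both of RNA splicing. Of those named, Dusp1, Btg2 and Klf6 also stand in the list of other immediate early genes used below. With the number of genes detected adjusted for, Dusp1 (0.467) and Btg2 (0.425) stayed first and second, while Nploc4 and Tmem72 moved to rank 33 and rank 20. Btg2 was less tied to the score on PRT4165 replicate 2 (0.151) than on the other plates (0.520 to 0.647).

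Heat shock chaperones, which also answer cell stress, were followed as a list of 14 genes. Their mean level correlated with the score at 0.446 (0.337 to 0.574), or 0.234 (0.117 to 0.429) once genes detected were adjusted for. A list of 31 other immediate early genes reached 0.727 (0.667 to 0.789) and 0.630 after the same adjustment. The 19 upstream kinases and serum response factors were at 0.344, and at 0.0696 after adjustment. The 10 other AP-1 and bZIP genes were at 0.299 and 0.107. The 8 keratinocyte genes known to carry AP-1 sites, such as Ivl, were at 0.0837 and -0.00879. For each of the basal, suprabasal, bulge, upper follicle, sebaceous and cycling marker lists the correlation was above 0 on some plates and below 0 on others, with means from -0.0651 to 0.0869.

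Clusters of cells built without the 10 genes showed the score in all of them. The 7 clusters held 23 to 61 cells and their mean score ran from 2.13 to 3.70. The lowest was a cluster of 52 cells led by Krt15, Krt5 and Adh7, at 2.13 (SD 1.79 over cells), which was also the shallowest, with a median of 127178 non-mitochondrial counts. Its plate means were 1.80, 1.73, 2.72 and 2.14, and after thinning its mean was 2.14, against 2.51 to 3.52 in the others. The highest was a cluster of 61 cells led by Crip1, Cxcl14 and Lhx2, at 3.70 (SD 2.36), with plate means of 4.39, 2.66, 4.51 and 3.31. A cluster of 29 cells led by Scd1 and Adh1, of which 18 were on PRT4165 replicate 2, was at 3.65 (SD 1.86), and Fos was detected in 89.7% of its cells. Within a cluster the SD over cells was 1.56 to 2.36.

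The related gene lists were tested in the same fit, and edgeR called 0 genes higher and 0 lower in each of them. Of the 10 other AP-1 and bZIP genes 5 had a log2 fold change above 0 (median -0.29). Fosl2, the most abundant of them and itself an AP-1 subunit, had 190.7, 62.9, 55.7 and 40.7 CPM and differed by -1.44 on the log2 scale (SE 0.70, unadjusted p 0.0725 by edgeR). Maf followed at 62.7, 57.1, 40.5 and 18.4 CPM. Of the 31 other immediate early genes 12 were above 0 (median -0.29). Egr2, a relative of Egr1, was at 653, 198, 560 and 225 CPM, and Btg1, an antiproliferative gene, was at 397, 192.9, 288 and 173.5 CPM. Both were, like Fos, Junb and Egr1, higher on both plates tagged replicate 1.

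Of the 41 genes of these 2 lists, 3 had an unadjusted p under 0.05, all higher with PRT4165 and all low in level, where 2.79% of all genes tested were so. They were chosen after their values were seen. Ccn1, a matricellular protein gene, was at 1.09 CPM on both vehicle plates and at 6.73 and 12.4 CPM with PRT4165 (unadjusted p 0.0184). Nr4a1, an immediate early nuclear receptor gene, was at 1.05 and 0.374 against 10.2 and 5.22 CPM (unadjusted p 0.0251). Fosl1, an AP-1 subunit gene, was at 0.0388 and 0.0576 against 0.338 and 1.63 CPM (unadjusted p 0.0398). The adjusted p by edgeR was above the threshold for each.

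In the other lists 0 genes reached an unadjusted p under 0.05. Of the 19 upstream kinases and serum response factors 6 were above 0 (median -0.41), with Map3k1, a kinase of the MAP kinase cascade, at 61.5, 78.4, 106 and 60.4 CPM. Of the 7 tested keratinocyte genes with AP-1 sites 2 were above 0 (median -0.55). Cd44, a hyaluronan receptor, was at 304, 434, 242 and 224 CPM, and Ccnd1, cyclin D1, was at 18.4, 77.8, 48.4 and 44.3 CPM. Of the 14 heat shock chaperones 8 were above 0 (median 0.11), with Hspa8 at 972, 1148, 1259 and 1716 CPM and Hsp90ab1 at 438, 816, 581 and 627 CPM.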

How the data were processed

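Single cells were sequenced with a modified Smart-seq2 protocol. The authors mapped reads to the mouse transcriptome (Ensembl 101) with Salmon 0.13.1 and deposited these estimated counts, unscaled, as 1 table with a row for each symbol and a column for each cell, and 18.3% of its values above 0 were not whole. All 289 columns were matched by title, and groups and replicate numbers come from the treatment and batch labels. Cells with at least 1000 genes and at most 50% mitochondrial counts were kept, as in the study. The highest Pearson correlation between 2 cells was 0.946. Cells were sorted singly into wells, and doublets were not called.

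Counts were summed per plate, rounded, filtered with filterByExpr, and scaled by TMM, and edgeR 4.0.16 gave quasi-likelihood tests (R 4.3.3, Benjamini-Hochberg over all genes, threshold 0.05), with DESeq2 1.42.0 as an alternative. On simulated counts the edgeR test recovered changed genes at a low spread between plates and recovered none at the spread fitted here. Standard errors are the log2 fold change divided by the square root of F. The fitted coefficient of variation between plates was 76.9%. CPM per cell was taken over non-mitochondrial genes. Reads carry no molecular identifiers. The Wilson intervals on shares of cells cover counting error only, while the intervals on log2 fold changes rest on the spread between plates.

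The main fit held treatment alone and did not pair the plates. The replicate number is the labels' batch tag, and an alternative fit used it as a block that pairs the plates. Deviations of same-numbered plates correlated at 0.0426 over 12791 genes. Clusters used 2000 variable genes without the members, scaled within each replicate, 15 components, 15 neighbours and leidenalg 0.10.2 at resolution 1.0. Exon lengths come from GENCODE M21 (GRCm38) and promoters from RefSeq (GRCm38.p6). The members, gene lists and rules were chosen with earlier results of these data known. Named genes are the members, the 2 most abundant tested genes of each list, and the 10 genes most correlated with the members' mean level. A list gene with an unadjusted p under 0.05 is named as chosen after its value was seen. Of the genes these rules name, 2 are not reported here.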

Additional observations from a re-analysis of the deposited data

How the results depend on the processing

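Over the 90 alternative fits of single members, 80 kept the direction of the log2 fold change, 10 reversed it, and 0 passed the threshold (smallest adjusted p 0.542, for Atf3 with DESeq2). Atf3 ran from 0.68 to 2.25, Fos from 0.06 to 0.73, and both stayed above 0, as Jun and Ier2 did, while Ier3 stayed below. Leaving out 1 plate in turn gave -0.80 to 0.18 for Fosb, -0.78 to 1.46 for Junb, -0.67 to 0.082 for Jund, -0.32 to 0.84 for Egr1 and -0.45 to 0.41 for Zfp36. Egr1 turned below 0 and Jund above 0 without PRT4165 replicate 1, Fosb above 0 without vehicle replicate 2, and Junb and Zfp36 below 0 when either of these plates was left out. Atf3 was at 0.68 without PRT4165 replicate 1. Leaving out a plate also shifted the median of all genes, to between -0.15 and 0.19. Fosb was at 0.28 with a mitochondrial limit of 25%, and Zfp36 at -0.0083 in cells thinned to 50000 counts. With the replicate block Zfp36 was at -0.022, and 0 genes were called, as without it, so the block changed no call. DESeq2 called 1.45% of 14988 genes, where edgeR called 0 of 12791 (630 at an unadjusted p under 0.05), and the cause was not tested. The median pair correlation was between 0.329 and 0.365 when 1 plate was left out, and 0.285 when adjusted for genes detected, an alternative chosen after seeing the data. The difference in median members per cell was 2 whichever plate was left out, 1 in thinned cells or with a minimum of 5 counts, and 0.5 with a mitochondrial limit of 25%.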
